A study of Homo sapiens with 12 samples.

Results

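Large cytoskeletal linkers and trafficking motors were described in DLD1 cells, a line established from a human colorectal cancer, through 8 genes: MACF1, PLEC, FLNA, MYH9, SPTAN1, SPTBN1, DYNC1H1 and CLTC. They were chosen by gene symbol, 8 of the 58302 genes listed in the deposited gene table, and hold 21 of the 2364 peaks in the deposited table of differential peaks of N4-acetylcytidine (ac4C), an acetyl mark on cytidine in RNA. The choice was made with the levels and peaks of these files in view, so the members' peaks are a description and carry no test. Libraries came from cells at passage 5 with a short hairpin RNA against NAT10 (shNAT10) or with the non-targeting hairpin shNC. NAT10 is the acetyltransferase that writes ac4C. Total RNA broken into pieces of 100 to 200 nt was sequenced as input, or after pull-down with an ac4C antibody, with 3 replicates for each of the 4 groups (12 libraries). The labels do not say whether replicates were separate cultures or how many hairpin clones were used, so p-values measure only the spread between these samples. Gene levels were given for the 6 input libraries alone, and levels of pulled-down RNA were not analysed here.

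These proteins are long, multi-domain scaffolds and motors. Plakins such as MACF1 and plectin (PLEC) tie different filament systems to each other, filamin A (FLNA) crosslinks actin, and spectrins (SPTAN1 and SPTBN1) form the mesh under the plasma membrane. Nonmuscle myosin IIA (MYH9) contracts actin, cytoplasmic dynein (DYNC1H1) carries cargo toward microtubule minus ends, and clathrin (CLTC) coats the vesicles of endocytosis and of the trans-Golgi. All serve epithelial cells in shape, adhesion and polarised transport. Acetylation of cytidine in mRNA has been tied to RNA stability and translation, and the antibody method finds regions, not single bases.

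The libraries differed in depth and in how well they matched their labels. Fragments on genes, recovered from the level values, numbered 1223594 to 1302565 in the shNAT10 libraries and 2634913 to 2756119 in shNC. NAT10 itself was listed at FPKM 0.00, 28.1 and 31.4 (fragments per kb of gene and per unit of library size) in the libraries labelled shNAT10 and at 1.24, 3.95 and 2.89 in shNC, so replicates 2 and 3 labelled shNAT10 went against the label. Every direction below is that of the labels. Of 9 colon epithelium markers, 8 were above 0 in at least 1 shNAT10 library and 9 in at least 1 shNC library, with summed FPKM of 8120 to 8580 against 5050 to 5390. Keratins, KRT8 above all, made up most of that sum, while EPCAM was at FPKM 38.3, 80.3 and 128 in shNAT10 and 226, 370 and 262 in shNC. The 8 markers tested had a median difference of 0.10 with 4 of 8 above 0, and 0 passed (limma). Of 8 fibroblast and smooth muscle markers, 7 were above 0 in at least 1 shNAT10 library and 2 in at least 1 shNC library, with summed FPKM of 14.4 to 69.2 against 0.00 to 3.81. Single genes carried most of the sum in shNAT10 replicates 1 and 2, TAGLN with 68.9 and ACTA2 with 22.0. In shNAT10 replicate 3 the sum was spread over several markers, with DES at 4.74, DCN at 3.18 and LUM at 2.22. These were at 0 in every shNC library, while COL3A1 was above 0 in shNC replicate 1 alone (0.13). The collagens COL1A1 and COL1A2 were also at 0 in every shNC library. In shNAT10 replicates 1 to 3 COL1A1 was at 0, 0.068 and 0.425, and COL1A2 at 0, 0.0598 and 0.898. Several of the 8 linker genes are also expressed in such cells, and the part of those markers in the levels below was not tested. Leukocyte markers summed to at most 0.199 FPKM and endothelial and red cell markers to at most 0.241. In bulk RNA, fewer expressing cells and less RNA per cell cannot be told apart.

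The RefSeq sequences used here reached into a peak of CLTC, whose first peak began 4 bases after the annotated gene start, at the 5′ end of the mRNA. Its first 30 bases are shown as the start of the 1 peak in a 5′ UTR (RefSeq, GRCh38.p14, chr17:59619899-59619928, plus strand). Capitals mark the 11 cytidines, the base on which ac4C forms.
CLTC 5′ peak: gtttCCggagtCtgCgCtgCgCCCggttCC
The stretch was 70.0% G and C. The authors counted sites of the motif CXXCXXCXXCXX, in which X is any base. On the plus strand the 46 bases of this peak covered by the RefSeq sequence held 0 matches to it, and the first of the 6 sites that the authors listed in the peak came further on, at position 59619957.

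All 8 genes were above 0 in all 6 input libraries, which held for 24.2% of 8140 protein-coding genes tested and for 32.7% of the 1207 of those at least as long as MYH9, the shortest member (8959 nt, as recovered from the level values). The genes were chosen with these levels in view, and the shares are not matched for level, so this is a description. A gene was tested when its mean FPKM over the libraries was at least 1, and all 8 members were. By mean FPKM over the 6 libraries, FLNA was the most abundant (86.9, rank 257 among tested protein-coding genes), followed by MYH9 (46.4), PLEC (37.8), DYNC1H1 (37.3), SPTBN1 (33.3), CLTC (25.0), SPTAN1 (20.8) and MACF1 (5.80, rank 4425). From MYH9 to SPTAN1 each gene differed from the next by less than its own SD between replicates in either group.

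The members' spread between replicates was small beside that of other genes. The median within-group SD of log2(FPKM + 1) was 0.81 over the 8 members, from 0.60 in SPTAN1 to 1.59 in MACF1, against 1.74 over tested protein-coding genes and 1.45 over the 1207 long ones. These values were known when the genes were chosen and are a description.

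FLNA and MYH9 gave the highest levels. FLNA, the filamin that crosslinks actin and anchors it to the membrane, was at FPKM 201, 44.8 and 117 in shNAT10 replicates 1 to 3, and at 83.4, 39.7 and 35.2 in shNC. These came from 2957, 711 and 1486 fragments in shNAT10 and 2988, 1381 and 1277 in shNC. Replicate 1 was the highest library within each hairpin, and the groups overlapped. The log2 difference, shNAT10 minus shNC, was 1.05, with an SE of 1.2 and a 95% interval from -1.32 to 3.41, short of the threshold (limma adjusted p = 0.754).

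MYH9, the heavy chain of nonmuscle myosin IIA, had 74.7, 50 and 29.2 FPKM in shNAT10 and 61.8, 29.0 and 34.0 in shNC. The means were 51.3 ± 22.8 in shNAT10 and 41.6 ± 17.7 in shNC (SD, n = 3 each), and the difference of 0.27 (SE 1.35, limma adjusted p = 0.957) lay within the replicate spread. MYH9 was the member in which shNAT10 replicate 3, not replicate 2, was lowest.

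The plakins differed by far in level. PLEC, which links intermediate filaments to actin and to hemidesmosomes, had 62.4, 13.1 and 51.1 FPKM in shNAT10 and 39.7, 29.1 and 31.1 in shNC. The shNC libraries of PLEC agreed closely (coefficient of variation 16.8%, the smallest of the 8 genes), while those of shNAT10 did not (61.2%), and its difference was 0.08 (SE 1.43, limma adjusted p = 0.989).

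MACF1, which joins actin to microtubules, had 8.15, 0.0156 and 14.5 FPKM in shNAT10 and 6.99, 1.48 and 3.62 in shNC. The value of shNAT10 replicate 2 came from 1 fragment (exact Poisson 95% interval 0.0253 to 5.57, counting error only), against 483 and 743 in shNAT10 replicates 1 and 3 and 1009, 208 and 530 in shNC. Its difference was 0.22 (SE 1.87, limma adjusted p = 0.979), and without shNAT10 replicate 2 it was 1.40.

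The spectrins gave no detectable difference. SPTAN1, the nonerythroid alpha chain, had 24.8, 11.2 and 27.7 FPKM in shNAT10 and 14.6, 29.6 and 16.6 in shNC, with a difference of 0.03 (SE 1.59, 95% interval -3.09 to 3.16, limma adjusted p = 0.997). SPTBN1, the nonerythroid beta chain that pairs with it, had 30.8, 17.0 and 64.0 in shNAT10 and 16.9, 34.1 and 36.8 in shNC, with a difference of 0.22 (SE 1.47, limma adjusted p = 0.970). For both chains replicate 3 was highest and replicate 2 lowest in shNAT10, and replicate 1 was lowest in shNC. The wide intervals hold changes of several fold in either direction, and the test could miss larger ones.

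The trafficking members leaned in opposite directions, and neither passed. DYNC1H1, the dynein heavy chain that holds the motor domain, had 85.8, 32.8 and 40.5 FPKM in shNAT10 and 13.6, 33.0 and 17.8 in shNC. Of shNC, replicate 2 alone reached into the shNAT10 range, just above shNAT10 replicate 2. Its difference was the largest of the 8 genes, 1.24 (SE 1.45, 95% interval -1.63 to 4.1, limma adjusted p = 0.754), with an exact two-sided permutation p of 0.200.

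CLTC, the clathrin heavy chain, had 20.2, 3.10 and 38.8 FPKM in shNAT10 and 19.9, 33.5 and 34.8 in shNC, from 332, 55 and 550 fragments and from 795, 1304 and 1410. It was the 1 member with a difference below 0, -0.97 (SE 1.58, limma adjusted p = 0.824). Without shNAT10 replicate 2 the difference was -0.02.

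**Figure D1:**
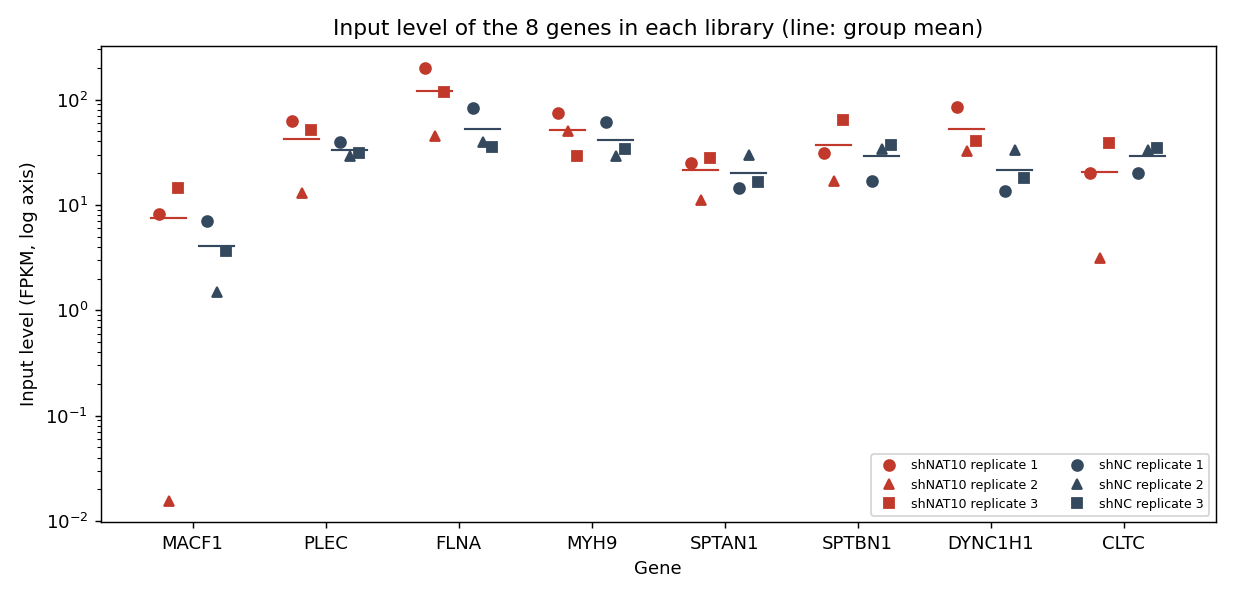
Input level (FPKM, log axis) of the 8 genes in each of the 6 libraries, with shNAT10 left of shNC, a marker shape for each replicate and a line at each group mean. The groups overlap for every gene, and shNAT10 replicate 2 is lowest of its group in 7 of 8 genes, with MACF1 at 0.0156.

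In all, 0 of 8 members passed the limma test at an adjusted p under 0.05, and 0 had an unadjusted p under 0.05. Over all 10517 genes tested, 20 passed (0.190%), of which 9 rose (0.0856%) and 11 fell (0.105%). Among the 8140 protein-coding genes 0 passed by limma, 178 had an unadjusted p under 0.05 (2.19%) and 73 passed by voom. Of all tested genes, 389 had an unadjusted p under 0.05 (3.70%) and groups did not overlap for 9.61%, the last against 0 of 8 members. By voom on the recovered fragments, an alternative added after the data were seen, 0 members passed and 0 had an unadjusted p under 0.05. The fitted SE drew on genes of like level (212.6 prior degrees of freedom) and was larger than the SE from each member's own replicates in 8 of 8. Exact permutation tests of the members ran from p = 0.200 (FLNA and DYNC1H1) to 1.00, over 8 tests unadjusted, where 0.1 is the smallest p these groups allow.

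The members' median difference was 0.22 with 7 of 8 above 0, while the median over all tested genes was -0.49 with 41.2% above 0. Both medians were lower on the TPM scale (-0.11 and -0.76) and by voom on recovered fragments (-0.05 and -0.58). After median ratio scaling they were 0.23 and -0.45, and after quantile normalization 0.22 and -0.08. The median over all tested genes also depended on how low levels were treated, and that over members less so. At a mean FPKM of at least 5 the medians over members and over all tested genes were 0.22 and -0.20. With a pseudocount of 0.01 they were 0.15 and -1.06. Of the members above 0, SPTAN1 (0.03) and PLEC (0.08) lay near 0. On the TPM scale these and MACF1 and SPTBN1 fell below 0. With shNAT10 replicate 1 alone, the shNAT10 library in which NAT10 was not above shNC, the median over members was 0.90, the median over all tested genes was -1.12, and FLNA and DYNC1H1 gave 2.02 and 2.04. That fit has no replicate of shNAT10 and assumes that its lone library varies like shNC. In it 0 members passed (lowest limma adjusted p = 0.517).

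**Figure D2:**
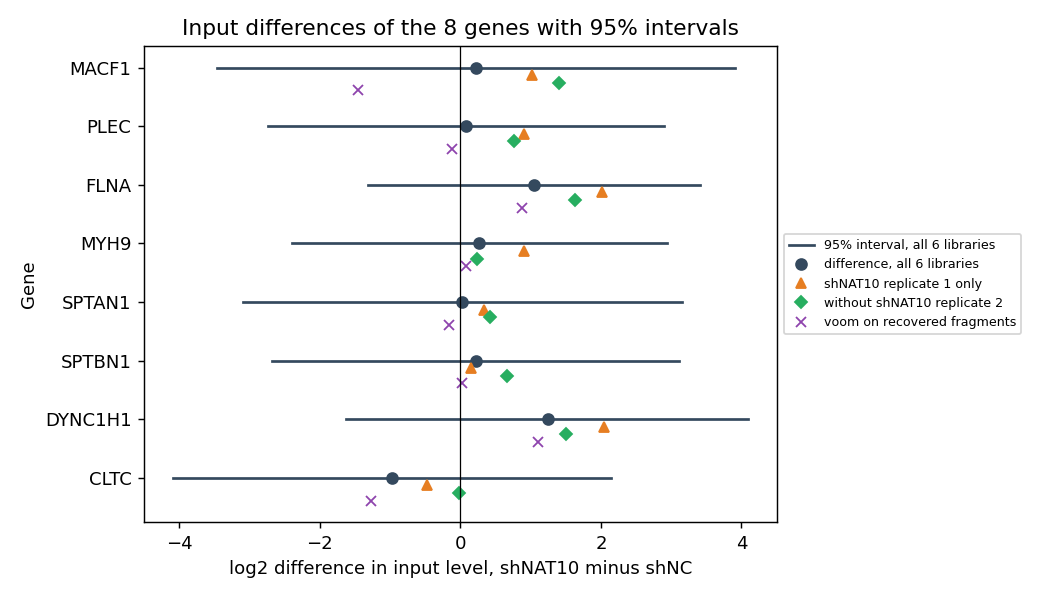
log2 difference in input level (shNAT10 minus shNC) for each gene, with the 95% interval of the limma fit on log2(FPKM + 1), and the value with shNAT10 replicate 1 alone, without shNAT10 replicate 2, and by voom on recovered fragments. All 8 intervals include 0, and CLTC is the gene whose difference lies below 0 in the fit of all 6 libraries.

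The shNAT10 libraries spread further apart in these genes than those of shNC. The 8 genes together took 0.723%, 0.267% and 0.561% of fragments on genes in shNAT10 replicates 1 to 3, and 0.418%, 0.408% and 0.381% in shNC. Replicate 2 was the lowest shNAT10 library for 7 of 8 genes, while in shNC the lowest library was replicate 1 for 4 genes, replicate 2 for 3 and replicate 3 for 1.

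Across the 6 libraries most pairs of members varied in the same direction, and whether these patterns followed the hairpin was not tested. Over 28 pairs, Pearson's r of log2(FPKM + 1) had a median of 0.52 and was above 0 in 24. It was highest for the plakins MACF1 and PLEC (0.94), and the spectrin chains, which form a heterodimer, gave 0.78. The lowest values paired MYH9 with SPTBN1 (-0.65), with CLTC (-0.47) and with SPTAN1 (-0.40). The 6 points share the library's depth and scaling, and shNAT10 replicate 2 is low in most genes, so these values are descriptions. Among 422 other protein-coding genes that averaged 50 FPKM or more and were above 0 in all 6 libraries, the patterns closest to the members' mean were those of RPL32 (r = 0.98), a ribosomal protein, NCL (0.97), the nucleolar protein nucleolin, and MRPS18A (0.95), a mitochondrial ribosomal protein.

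The genes that work with these proteins did not pass either. Of 120 partner genes in 8 lists, 101 were tested, of which 0 rose and 0 fell by limma, 0 were higher and 1 was lower at an unadjusted p under 0.05, and 9 (8.91%) had groups that did not overlap. Over all tested genes these shares were 3.70% at an unadjusted p under 0.05, against 0.990% of the partners, and 9.61% with groups that did not overlap. Their median difference was -0.24, against -0.49 over all tested genes. The gene below 0.05 was CLTB, a clathrin light chain named after its values were seen, listed at 0 in all 3 shNAT10 libraries and at FPKM 37.5, 50.8 and 0.572 in shNC (limma adjusted p = 0.754).

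Among clathrin adaptors and coat factors 0 of 24 tested passed (median -0.42). AP2M1, the cargo-binding subunit of the plasma membrane adaptor AP-2, had 159, 112 and 111 FPKM in shNAT10 and 55.7, 44.6 and 99.8 in shNC. Its groups did not overlap, and the difference of 0.98 did not pass (limma adjusted p = 0.754). AP1M2, the epithelial form of the medium chain of AP-1, had 47.5, 68.4 and 102 in shNAT10 and 2.27, 95.4 and 73.8 in shNC.

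Other dynein chains, dynactin and dynein adaptors had 0 of 20 past the test (median -0.12), and replicates of single genes scattered widely. DCTN2, a dynactin shoulder subunit, had 129, 0 and 25.3 FPKM in shNAT10 and 4.28, 24.3 and 1.66 in shNC, and ACTR1B, an actin-related subunit of dynactin, had 15.4, 6.23 and 78.2 against 0.307, 32.8 and 11.3. Transport kinesins, which move the other way on microtubules, had 0 of 9 (median -0.51). KIF5B, the conventional kinesin heavy chain, had 84.4, 47.2 and 111 in shNAT10 and 35.6, 44.0 and 121 in shNC, and KLC1, a kinesin light chain, 21.7, 9.01 and 0.564 against 28.3, 6.18 and 9.03.

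Filamins and actin crosslinkers had 0 of 11 past the test (median 0.51). ACTN4, an alpha-actinin, had 164, 73.1 and 192 FPKM in shNAT10 and 93.4, 42.8 and 103 in shNC. Myosin II chains and regulators had 0 of 11 (median 0.16), led by the light chains MYL12B, at 0, 83.8 and 415 in shNAT10 and 169, 42.9 and 73.6 in shNC, and MYL6, at 56.2, 36.3 and 226 against 79.1, 51.9 and 80.4.

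Ankyrins, adducins, protein 4.1 and other spectrins had 0 of 9 past the test (median -1.0). The adducin ADD3 had 42.7, 88.8 and 1.91 FPKM in shNAT10 and 0.723, 16.9 and 63.6 in shNC. EPB41L2, a protein 4.1 relative, had 0.488, 15.8 and 1.78 against 17.5, 18.3 and 35.7, groups that did not overlap, and its difference of -2.52 did not pass (limma adjusted p = 0.754). Other plakins had 0 of 5 (median 0.56), with desmoplakin (DSP), the desmosomal plakin, at 54.8, 38.4 and 7.11 in shNAT10 and 58.6, 23.8 and 25.5 in shNC, and periplakin (PPL) at 6.37, 26.6 and 26.5 against 1.12, 17.5 and 11.4. Microtubule end and lattice binders had 0 of 12 (median -0.05). MAPRE1, the end-binding protein EB1, had 114, 1.53 and 0 in shNAT10 and 71.6, 35.9 and 13.0 in shNC, and CAMSAP3, which holds minus ends, 73.4, 8.95 and 15.3 against 0.732, 1.7 and 7.35, again without passing (limma adjusted p = 0.754).

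In the authors' deposited table of differential ac4C peaks, 7 of the 8 genes held a peak, and PLEC (chr8:143915153-143976745) held none. MACF1, DYNC1H1 and CLTC had 4 peaks each, MYH9 and SPTBN1 3, FLNA 2 and SPTAN1 1. Among tested protein-coding genes 19.1% held a deposited peak, and the share was 29.1% among the 1207 as long as the members and 45.6% among the 395 of those above 0 in all 6 libraries. The genes were chosen with this table in view, so nothing is read from their count. Per kb of recovered gene length, CLTC (0.338) and MYH9 (0.335) held the most peaks and MACF1 (0.094), FLNA (0.189), SPTBN1 (0.162) and SPTAN1 (0.062) fewer, with DYNC1H1 at 0.253.

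The authors gave each peak a log2 fold change of a differential test, and which hairpin was its numerator is not stated, so signs below are relative to each other only. Of the 21 peaks 14 were negative and 7 positive (66.7% negative, against 61.7% of all 2364 peaks). Of the 6 genes with at least 2 peaks, MACF1 was positive throughout and FLNA, MYH9 and SPTBN1 negative throughout, and the 1 peak of SPTAN1 was negative. DYNC1H1 and CLTC held both signs, as did 48.6% of the 327 genes in the authors' deposited table with at least 2 peaks. Sizes ran from 1.02 to 8.91, and their median of 3.94 stood beside 4.81 over all deposited peaks. The largest differential FDR among the 21 was 0.0479.

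MACF1, the lowest of the 8 genes in input level, had its 4 positive peaks in the last part of its gene, between 84.4% and 99.6% of the annotated span from the 5′ end (GRCh38, plus strand). The authors' deposited table gave log2 changes of 6.61 at chr1:39424030-39424180, 5.78 at chr1:39441965-39442208, 1.02 at chr1:39443548-39447755 and 4.39 at chr1:39485618-39485768, all in coding sequence. The third covered 421 nt in 4 exon blocks spread over 4208 bases of genome, and the others 151 nt each. The differential FDRs of the second and the last, 0.0129 and 0.0479, were among the weakest of the 21.

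The spectrin chains, which are built from repeated helical bundles, had negative peaks in all 4 cases. SPTAN1 had 1, at chr9:128626446-128626686 (plus strand, log2 change -2.49 in the authors' deposited table), with 4 motif sites in 241 nt. SPTBN1 had 3, with -5.44 at chr2:54645242-54645986, -4.26 at chr2:54657988-54659245 and -2.0 at chr2:54664434-54664674. The last of these lay within SPTBN1-AS2, a noncoding gene annotated on the opposite strand (chr2:54664172-54680045). Whether the authors counted by strand is not stated, and without strand the reads of this pair cannot be told apart. For input levels the same holds only for reads within an overlap with a gene annotated on the opposite strand. SPTAN1 overlaps DYNC2I2 only at its end (chr9:128633653-128633662), as MACF1 does a noncoding gene (chr1:39486956-39487138). SPTBN1 and DYNC1H1 also overlap noncoding genes over part of their span. The share of reads from these overlaps was not measured.

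FLNA and MYH9, both on the minus strand of their chromosomes, had negative peaks too. FLNA had -3.0 at chrX:154352300-154352600 and -4.62 at chrX:154350011-154350251 in the authors' deposited table. The first carried the smallest differential FDR of the 21 (1.00e-230) at a deposited fold of 2.77. The second had a differential FDR of 0.00162 at a fold of 33.5. The FDR belongs to the differential test and the fold to the peak itself, so they need not rank peaks alike. MYH9 had -1.71 at chr22:36316548-36319718, -3.77 at chr22:36306597-36314174 and -1.04 at chr22:36296901-36297081. The middle one joined 4 blocks with 330 nt in all over 7578 bases of genome.

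DYNC1H1 had the peak of highest deposited fold among these genes, 131 at chr14:102041578-102042660 (5 blocks, 480 nt), with a log2 change of -1.38. Its neighbour only 744 bases upstream, at chr14:102040376-102040833, had 2.68, the 1 positive change in this gene, at an FDR of 1.00e-128 in the authors' deposited table. The other peaks, at chr14:101994770-101995260 and chr14:102012046-102012396, had -4.23 and -3.94. How the authors scaled peaks to input is not stated.

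CLTC alternated along its length. Its 5′ UTR peak, the one whose first bases are shown above, spanned chr17:59619899-59620138 and had -4.26 in the authors' deposited table. The next, at chr17:59666591-59667013, had 8.78, followed by -3.02 at chr17:59680959-59681466 and 8.91 at chr17:59685132-59687133. The pair of positive changes were the largest of the 21 peaks, with deposited folds of 88.0 and 23.0, while the negative ones had 2.0 and 3.55.

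**Figure D3:**
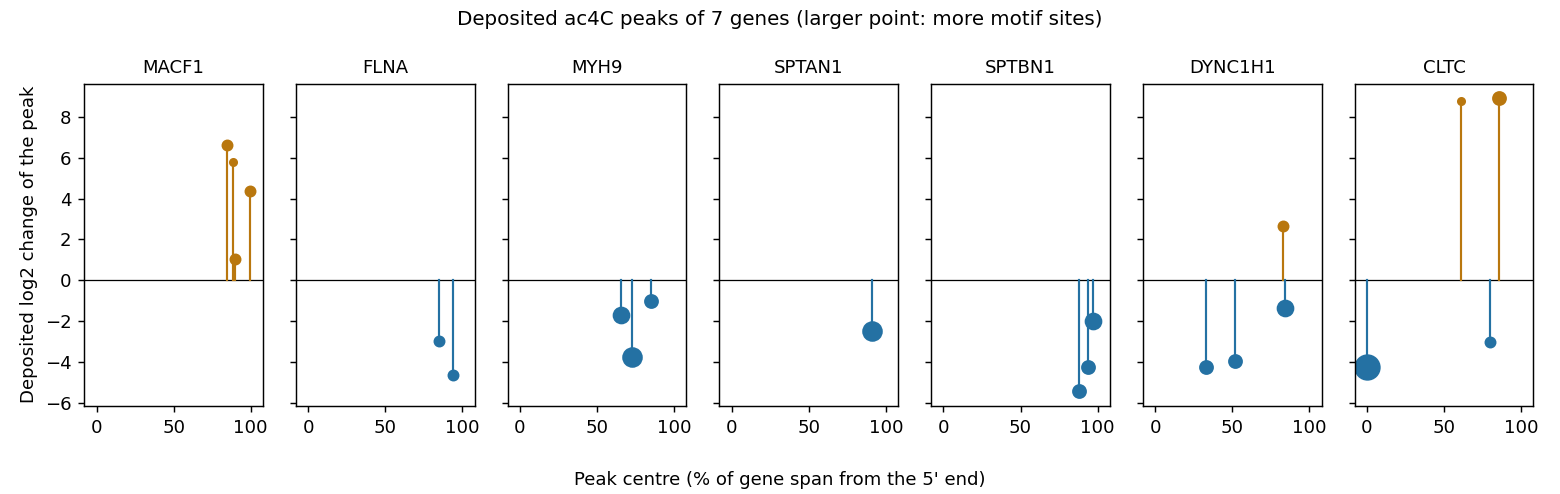
Deposited log2 change of each of the 21 peaks (vertical axis, numerator not stated) against the position of its centre as a percentage of the gene's RefSeq span from the 5′ end (horizontal axis), 1 panel per gene, with larger points for more motif sites. MACF1 peaks are all positive, those of FLNA, MYH9, SPTAN1 and SPTBN1 all negative, and CLTC holds the largest changes, 8.78 and 8.91.

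Coding sequence held 20 of the 21 peaks (95.2%, against 59.5% of all deposited peaks), and the CLTC 5′ UTR the other. Of the 20, 14 (70.0%) were centred past 80% of the annotated gene span, against 33.1% of 1306 coding-sequence peaks in the authors' deposited table that lay within their RefSeq gene. Introns count in that span, so the value is one of genome position and not of mRNA position. Peaks of more than 1 block made up 14 of 21 (66.7%), close to the 67.8% of all coding-sequence peaks.

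The motif CXXCXXCXXCXX was counted by the authors 42 times in 19 of the 21 peaks (90.5%, against 64.6% of coding-sequence peaks and 62.6% of all peaks in the authors' deposited table). Per kb of peak the 21 member peaks had 7.55 sites, against 5.62 over all deposited peaks. All deposited coding-sequence peaks had 6.03, which is not a like value, since the 21 include the dense CLTC 5′ UTR peak. Negative member peaks held 36 sites in 3700 nt, or 9.73 per kb, and positive ones 6 in 1866 nt, or 3.22. Without the CLTC 5′ UTR peak, which alone held 6 sites in 240 nt (25.0 per kb), the negative peaks gave 8.67. Over all coding-sequence peaks the values were 6.42 for negative and 5.29 for positive. The difference was not tested, because the peaks were chosen with the table in view and share 7 transcripts.

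The 7 positive peaks ranged from 0 sites per kb, in MACF1 at chr1:39441965-39442208 and in CLTC at chr17:59666591-59667013, to 6.62, in the first and the last peak of MACF1. The 14 negative ones ranged from 3.69 in CLTC to 25.0 in its 5′ UTR, with 16.6 in SPTAN1 and 13.2 in both SPTBN1 and DYNC1H1. Since FLNA, with 4.74 and 4.15, lay among the positive peaks in density, the ranges overlapped.

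**Figure D4:**
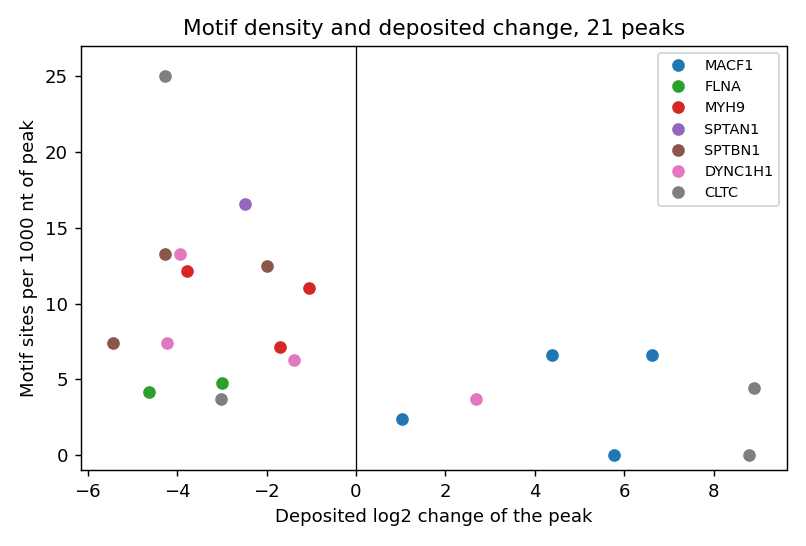
Motif sites per kb of peak (vertical axis) against the deposited log2 change (horizontal axis) for the 21 peaks, coloured by gene. Positive peaks lie at 6.62 or below, while negative peaks reach 16.6 in SPTAN1 and 25.0 in the CLTC 5′ UTR.

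Partner genes with the most deposited peaks were DSP with 4 (2 negative and 2 positive, from -4.28 to 5.11 in the authors' deposited table), DCTN1, the large dynactin subunit that binds dynein, with 3 (1 negative and 2 positive, from -5.14 to 6.75), and EPPK1, an epithelial plakin, with 2, both negative, level with MAP4 and MYH10. Of 101 tested partner genes 34 (33.7%) held a peak, against 19.1% of tested protein-coding genes. The 2 shares are not matched for length or level. Of the 101 partners 38 were above 0 in all 6 libraries, against 24.2% of tested protein-coding genes. The lists were also chosen with earlier results known, so nothing is read from the share. By list, a peak was held by 4 of 5 plakins, 10 of 24 clathrin adaptors and coat factors, 6 of 12 microtubule binders, 5 of 20 dynein and dynactin genes, 4 of 11 myosin II genes, 3 of 11 actin crosslinkers, 1 of 9 kinesins and 1 of 9 membrane skeleton genes.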

How the data were processed

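The authors deposited gene levels as FPKM for the 6 input libraries, and a peak table that, per the file headers, gives a fold (ratio), a log2 fold change of a differential test, log10 FDR and p scores, and the motif site number. The submitters' processing notes name cutadapt 2.5, HISAT2 2.1.0 and HOMER 4.10.4, without roles, and the builds GRCh38 and GRCm38; counter, annotation and peak caller are not given in the sources used here. Peaks were read as GRCh38, half-open (21 of 21 member peaks lay within their RefSeq gene), and are printed counting from 1. Columns named sh were taken as shNAT10 by elimination.

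Genes with a mean of 1 FPKM or more were fitted together on log2(FPKM + 1), using limma 3.58.1 (lmFit, then eBayes with a trend; R 4.3.3), and p-values were adjusted over all of them by Benjamini-Hochberg. Tested on simulated data, it recovered 50 of 100 genes changed by 8 on the log2 scale and 4 of 100 changed by 4, among 10517. Fragments were recovered with a scale per library from 13 mitochondrial mRNAs of known length. Per gene, the shortest length giving whole values within 0.0001 was taken. The FPKM denominator was 1.067, 1.215 and 0.979 times the sum of fragments in shNAT10 replicates 1 to 3. In shNC it was 1.228, 1.247 and 1.267 times that sum. For the same share of fragments a lower ratio gives a higher FPKM, so FPKM and fragment share can differ between the hairpins. PCR copies were not marked.

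The members and lists were chosen with earlier results of these data known. Named genes were all members, the 2 most abundant genes of each partner list, 3 genes of most similar pattern and the 3 partners with most peaks. Others were named after their values were seen, as stated beside each. A gene of the actin crosslinker list that this rule names is not reported here. Libraries of the same replicate number shared no deviation (correlations 0.00, -0.02 and 0.01). The labels do not say whether they were paired, and the main fit did not pair them. Alternatives covered pseudocount, filter, scaling, robust eBayes, the replicate block, left-out libraries and voom.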

Additional observations from a re-analysis of the deposited data

How the results depend on the processing

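No member passed under any of 17 alternatives (lowest limma adjusted p = 0.517), and 113 of 136 member differences kept their sign. FLNA, DYNC1H1 and CLTC kept theirs in all 17. Signs turned for MACF1 with a pseudocount of 0.1 (-0.53) or 0.01 (-1.21), on the TPM scale (-0.18) and by voom (-1.45), for PLEC on the TPM scale (-0.19), after quantile normalization (-0.02) and by voom (-0.12), for SPTAN1 on the TPM scale (-0.24) and by voom (-0.16), and for SPTBN1 on the TPM scale (-0.05); the cause was not tested. With each replicate left out, differences ran from -0.57 to 1.40 (MACF1), -0.33 to 0.76 (PLEC), -0.04 to 0.62 (MYH9, below 0 without shNAT10 replicate 1), -0.20 to 0.42 (SPTAN1) and -0.26 to 0.66 (SPTBN1). Their median ran from -0.19 to 0.71, and was 0.90 with shNAT10 replicate 1 only. The count of all genes past the test, 20, was 7 with a pseudocount of 0.01, 0 without a filter (340 at an unadjusted p under 0.05), 10 at a mean FPKM of at least 5, 95 by voom, 0 with shNAT10 replicate 1 only (1139 at an unadjusted p under 0.05, 4 libraries in the fit) and 1 to 34 with a replicate left out (1 without any one shNC library, 12 without shNAT10 replicate 1, 34 without shNAT10 replicate 2). With the replicate block the median over members was 0.22, 0 members passed and 21 genes did. Of the 21 peaks, 18 had a differential FDR under 0.01 (13 negative, 5 positive), and 0 overlapped another. MACF1 had the lowest fragment count of the members, 1 in shNAT10 replicate 2, a library of 1232931 fragments on genes. In shNAT10 replicate 3, with 1223594 fragments on genes, it had 743, and the cause was not tested.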

Other observations

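The positions that the authors listed for motif sites could be checked where a RefSeq promoter sequence covers them. On the plus strand the motif began 1 base after the listed position in 12 of 12 sites, and on the minus strand the motif ended at the listed position in 9 of 10. All 1581 sites in peaks of 1 block lay inside their block. In peaks of several blocks 1063 of 1548 (68.7%) did, and the rest lay between blocks. Among the 8 genes 39 of 42 sites lay inside, and the 3 outside all belonged to the 4-block peak of MYH9 at chr22:36306597-36314174, so its density of 12.1 sites per kb rests on the authors' count and not on positions within the covered bases.

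CLTA, a light chain that binds the clathrin heavy chain, chosen after its values were seen, was at FPKM 0, 2.92 and 7.63 in shNAT10 and 0, 3.39 and 60.8 in shNC, whereas CLTC was above 0 in all 6 libraries. Of the dynein subunits listed beside DYNC1H1, the intermediate chain DYNC1I2, also chosen after its values were seen, had 0, 0.426 and 1.96 in shNAT10 and 2.77, 56.5 and 1.99 in shNC (limma adjusted p = 0.754).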
